A study of Mus musculus with 12 samples.

Results

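The genes described here encode the subunits of the oxidative phosphorylation system that are made from nuclear DNA. They were chosen by symbol: names beginning with Ndufa, Ndufb, Ndufc, Ndufs or Ndufv and a digit, Sdha to Sdhd, names beginning with Uqcr, Cox4 to Cox8 or Atp5, and Cyc1 and Cycs. The rule matched 90 symbols, of which 4 were annotated as processed pseudogenes (Ndufs6b, Cox6c2, Ndufb4c and Ndufa11b) and were left out once their annotation had been seen. The remaining 86 genes, of 41388 in the files, comprised 37 of complex I, 4 of complex II, 9 of complex III, 18 of complex IV, 17 of complex V and 1 for cytochrome c. Of these, 85 had enough reads for testing, and Cox8c, with at most 4 reads in any library, did not. Among the 4 pseudogenes Cox6c2 had the most reads, between 21.0 and 55.6 CPM (reads of a gene scaled to the library's assigned reads) in each library.

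RNA sequencing had been performed on 12 libraries from the brains of 8 mice, all homozygous for a floxed Bmal1 allele (Bmal fl/fl, gene symbol Arntl) on a C57BL/6 background. The aKO animals were Cre+ for ALDH1L1-CreERT2, a tamoxifen-inducible recombinase driven by an astrocyte promoter, and the WT animals were Cre-. Every animal, whichever its genotype, received tamoxifen by gavage at 2 months (2 mg daily over 5 days), and the brains were collected when the animals were 7 months old. Astrocytes held on ACSA-2 magnetic beads gave 5 aKO libraries (animals 203, 205, 208, 221 and 222) and 3 WT libraries (201, 202 and 265), while the cells that passed the beads, called flowthrough, gave 2 aKO libraries (203 and 205) and 2 WT libraries (201 and 202). The astrocyte library of animal 202 was titled wild type but carried a knockout genotype in another label field; it was kept as WT, and results were recomputed without it and with it as aKO. All flowthrough titles carried a letter b of unstated meaning, so whatever it marks cannot be told apart from the fraction.

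Each library held between 21816637 and 62655238 assigned reads. Astrocyte markers summed to between 3105 and 14791 CPM in astrocyte libraries and between 247 and 5201 CPM in flowthrough libraries, with none of the 12 genes at 0. Within the astrocytes, the lowest sums were those of WT 265 (3105 CPM) and aKO 222 (4856 CPM), and within the flowthrough the highest was that of WT 202. By astrocyte markers alone these libraries stood nearer to the other fraction. Microglia markers (348 to 765 CPM in astrocytes, 7258 to 12164 CPM in flowthrough) and leukocyte markers (75.4 to 341 CPM and 1535 to 3845 CPM) kept all libraries apart by fraction, these included. All 12 microglia markers and all 11 leukocyte markers passed as lower in astrocytes (adjusted p under 0.05 in the edgeR test described below). All 10 oligodendrocyte markers and all 12 neuron markers had estimates above 0 there, and 8 and 6 of them passed as higher. Ttr, the transthyretin gene of the choroid plexus, took 1.20% to 17.0% of reads in astrocyte libraries and 8.17% to 32.1% in flowthrough libraries. Arntl itself had 10.5, 25.01, 8.99, 12.5 and 5.05 CPM in aKO astrocytes 203, 205, 208, 221 and 222, against 3.50, 6.80 and 2.13 CPM in WT astrocytes 201, 202 and 265. The gene-level count covers the whole gene and so does not check a deletion of part of it.

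Oxidative phosphorylation takes electrons from NADH at complex I and from succinate at complex II, passes them through complex III and cytochrome c to oxygen at complex IV, and uses the proton gradient so built to make ATP at complex V. Most subunits are encoded in the nucleus and imported, while a few core proteins are encoded by mitochondrial DNA. Several complex IV subunits exist as a widespread form and a form known mainly from heart and skeletal muscle, lung or testis. BMAL1 is a transcription factor of the circadian clock that binds E-box sequences as a dimer with CLOCK.

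Summed over all 86 genes, the nuclear subunits made up 2.55%, 2.86%, 3.23%, 2.56% and 3.69% of reads in aKO astrocytes 203, 205, 208, 221 and 222, and 2.81%, 2.81% and 4.74% in WT astrocytes 201, 202 and 265. They made up 4.65% and 5.83% in aKO flowthrough 203 and 205, and 4.04% and 3.24% in WT flowthrough 201 and 202. WT 265 and aKO 222 were the highest of the astrocyte libraries, and WT 202 was the lowest of the flowthrough, so the fractions overlapped.

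The share of each complex in the summed level was compared across libraries. Complex I contributed 36.5% to 44.4% of the summed CPM in astrocytes and 39.5% to 42.9% in flowthrough, complex III 10.4% to 11.7% and 10.8% to 11.5%, complex IV 18.1% to 23.2% and 16.2% to 19.5%, and complex V 23.0% to 26.2% and 24.4% to 26.6%. Cytochrome c contributed 0.658% to 0.815% in astrocytes and 0.841% to 0.943% in flowthrough, which did not overlap. Complex II contributed 1.92% to 5.47% in astrocytes and 0.492% to 4.90% in flowthrough. Its sum was 287 CPM in aKO flowthrough 205, below the 910 to 1586 CPM of the other 11 libraries, although the same library had the highest sums of complexes I, III, IV and V. Single genes of complexes I, III and V were low there too. Ndufa9, Uqcrc2, Atp5c1 and Atp5f1 had 1111, 1541, 4851 and 4045 reads in that library, fewer than in any other, so the low level was not confined to complex II.

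**Figure D1:**
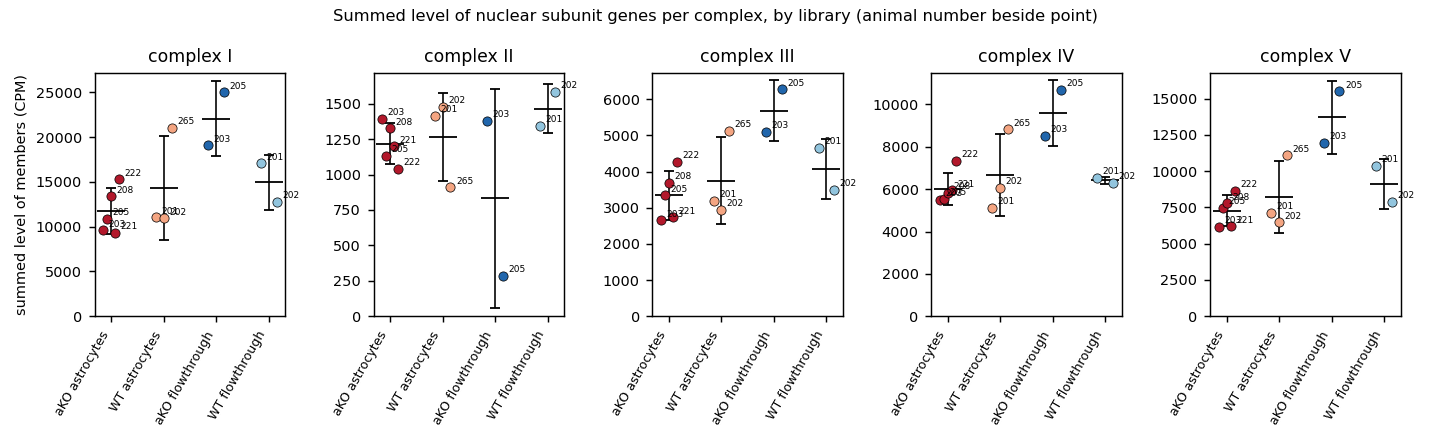
Summed CPM of the nuclear subunit genes of each complex (y axis, CPM) in each library, with bars for the group mean and SD; numbers beside the points are animals (n = 5, 3, 2 and 2 from left to right). In aKO flowthrough 205 complex II stood at 287 CPM while complex I stood at 25017 CPM, the highest complex I sum of the 12 libraries.

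The genes encoded by mitochondrial DNA followed another pattern. All 13 had estimates above 0 in astrocytes over flowthrough and 9 passed the test as higher (median log2 fold change 1.73), among them mt-Nd4l (2.22 ± 0.40 SE, adjusted p = 0.0012) and mt-Co2 (2.16 ± 0.51 SE, adjusted p = 0.0079; edgeR, quasi-likelihood test; adjusted over all genes by the Benjamini-Hochberg method, as are all adjusted p given here). Only 3 passed without WT flowthrough 201 and 4 without aKO flowthrough 205. The ratio of mitochondrially encoded to nuclear-encoded subunit reads was 4.35, 1.65, 3.13, 4.86 and 4.32 in aKO astrocytes 203, 205, 208, 221 and 222 and 3.09, 5.24 and 1.76 in WT astrocytes 201, 202 and 265. It was 0.804 and 0.220 in aKO flowthrough 203 and 205, and 0.683 and 1.57 in WT flowthrough 201 and 202. The ratio was thus higher in every astrocyte library than in every flowthrough library, narrowly so for aKO astrocytes 205 and WT flowthrough 202. In bulk samples fewer cells of a type and less RNA per cell cannot be told apart.

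In astrocytes over flowthrough, averaged over the genotypes, the nuclear subunits lay mostly below 0 but few passed the test. Of 85 tested, 1 was higher (Cox7b2) and 2 were lower (Cox8b and Cox7a1), all of complex IV, while 8.52% of all 20637 genes tested were higher and 8.52% lower (17% in all). The median log2 fold change was -0.53 for the 85 genes and 0.07 for all genes, with 21 estimates above 0 and 64 below; 19 of the 85 (22.4%) had an unadjusted p under 0.05, against 32.0% of all genes. Complex II had a median of -0.23 (0.85 without aKO flowthrough 203), complex III -0.21, complex IV -0.48, complex I -0.58 and complex V -0.67. In the same comparison all 10 choroid plexus markers (median -0.56) and all 9 ependymal markers (median -1.15) had estimates below 0, with 0 called in either list. Choroid plexus markers summed to 14320 to 177176 CPM in astrocytes and 89572 to 334523 CPM in flowthrough, and ependymal markers to 637 to 2803 CPM and 1172 to 4013 CPM, with no gene at 0. Their part in the subunits' shift was not tested.

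The call depended on which animals entered. With the 4 animals that gave both fractions and the animal as a block, 5 genes were higher and 35 lower, the 3 genes named above included, against 15.9% and 13.6% of 20189 genes. The same 8 libraries without the block gave 3 higher and 34 lower. Leaving out aKO 222 and WT 265, the astrocyte libraries with the lowest astrocyte marker sums, gave 7 higher and 41 lower, and leaving out either alone gave 14 lower. Without WT astrocytes 201, without WT astrocytes 202, or with library 202 taken as aKO, 1 was higher and 0 lower. Without WT flowthrough 201 or without aKO flowthrough 205, no member passed in either direction. Scaling by library totals left 1 higher and 0 lower, and moved the median of all genes to 0.34 and that of the 85 to -0.33. Scaling by totals without mitochondrial genes and Ttr left 2 higher and 0 lower, with medians of 0.39 and -0.23. Over all genes the split moved as well, with 2288 higher and 1323 lower under library totals, and 3076 and 1333 without mitochondrial genes and Ttr, against 1758 and 1759. The 3517 calls over all genes in the main test also changed on leaving out 1 library, with the range given in the closing section. Calls over all genes are not given here for the 8 libraries unblocked, without both aKO 222 and WT 265, or with 202 as aKO. The member counts with libraries left out, unblocked or with 202 as aKO therefore do not separate a shift of the members from a general change in calls.

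The 35 lower genes of the blocked test comprised 16 of complex I, 4 of complex III, 5 of complex IV, 9 of complex V and Cycs. None belonged to complex II. The 5 higher genes were Ndufs1, Sdha, Uqcrc1, Cox6a1 and Cox7b2.

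**Figure D2:**
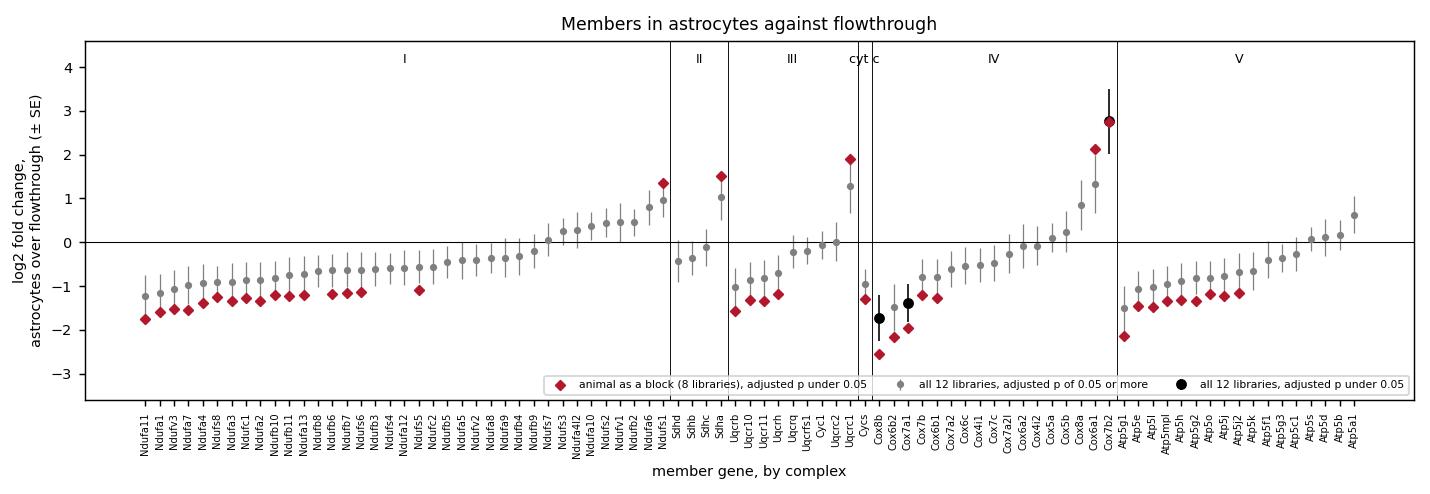
Log2 fold change of each tested gene in astrocytes over flowthrough (y axis), grouped by complex along the x axis; circles with SE bars are from all 12 libraries, black where the adjusted p was under 0.05, and red diamonds are estimates from the 8 paired libraries with an adjusted p under 0.05. Most genes lie below 0, with Cox8b at -1.74 and Cox7b2 at 2.76.

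In complex I, the accessory subunits Ndufa11 and Ndufa1 had the most negative estimates and Ndufs1 and Ndufa6 the most positive. Ndufa11 had 271, 518 and 1215 CPM (lowest, median and highest of 8 astrocyte libraries, as in each such triplet that follows), against 1037, 2163, 986 and 533 CPM in flowthrough aKO 203, aKO 205, WT 201 and WT 202, with a log2 fold change of -1.22 ± 0.47 (SE, adjusted p = 0.083) and of -1.75 ± 0.39 with the animal block (adjusted p = 0.0081). Ndufa1 had an estimate of -1.15 ± 0.43 (adjusted p = 0.078). For Ndufa11, WT astrocytes 265, at 1215 CPM, stood above 3 flowthrough libraries, and WT flowthrough 202 lay within the astrocyte range. Ndufs1, the largest core subunit and a carrier of iron-sulfur clusters, had 33.0, 107 and 128 CPM in astrocytes, against 27.9, 25.98, 30.4 and 83.1 CPM in the same order of flowthrough libraries, with a log2 fold change of 0.96 ± 0.39 (adjusted p = 0.102) and of 1.35 ± 0.34 with the block (adjusted p = 0.0153). All 8 astrocyte libraries lay above the flowthrough of aKO 203, aKO 205 and WT 201, whereas aKO 208, aKO 222 and WT 265 lay below the flowthrough of WT 202.

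Ndufa6, an accessory subunit, had 78.3, 283 and 400 CPM in astrocytes, against 60.2 and 57.8 CPM in aKO flowthrough 203 and 205 and 202 and 354 CPM in WT flowthrough 201 and 202 (log2 fold change 0.79 ± 0.39, adjusted p = 0.173). Both aKO flowthrough libraries lay below every astrocyte library, and both WT flowthrough libraries lay within the astrocyte range. Ndufa4, filed under complex I by its symbol although its protein is known as a complex IV subunit, had the highest level per length of the complex I group, with 2005 ± 791 RPKM (CPM divided by exon length) in astrocytes (SD, n = 8) and 3482 ± 1485 RPKM in flowthrough (SD, n = 4). Its log2 fold change was -0.92 ± 0.43 (adjusted p = 0.151) and -1.38 ± 0.40 with the block (adjusted p = 0.026). RPKM here divides by the joined length of all annotated exons, which for some genes is far above the coding length (8086 against 2181 bases for Ndufs1), so levels per length of such genes are understated.

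Complex II, succinate dehydrogenase, had 1 estimate above 0 and 3 below. Sdha, the flavoprotein that oxidises succinate, had 75.5, 379 and 558 CPM in astrocytes, against 102, 60.5, 113 and 396 CPM in flowthrough aKO 203, aKO 205, WT 201 and WT 202 (log2 fold change 1.03 ± 0.53, adjusted p = 0.191; with the block 1.51 ± 0.37, adjusted p = 0.0131). The low astrocyte values were those of aKO 222 and WT 265, and the high flowthrough value was that of WT 202. Sdhb, the iron-sulfur subunit, had 286, 358 and 446 CPM in astrocytes, against 511, 137, 551 and 481 CPM in flowthrough in the same order, and the membrane anchor Sdhd had 122, 188 and 244 CPM, against 319, 23.2, 295 and 290 CPM. For both, 3 flowthrough libraries lay above every astrocyte library and aKO flowthrough 205 lay below every one. Sdhc, the other anchor, had 238, 341 and 431 CPM in astrocytes and 446, 66.7, 384 and 419 CPM in flowthrough, and no complex II gene passed the test over all 12 libraries.

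Complex III also held estimates on both sides of 0. The core protein gene Uqcrc1 had 27.8, 266 and 365 CPM in astrocytes, against 41.0, 53.3, 34.5 and 185 CPM in flowthrough aKO 203, aKO 205, WT 201 and WT 202 (log2 fold change 1.27 ± 0.60, adjusted p = 0.157; with the block 1.89 ± 0.46, adjusted p = 0.0128). The other 6 astrocyte libraries lay above all flowthrough libraries, whereas aKO 222 and WT 265, at 27.8 and 38.9 CPM, lay among or below them. The small subunit gene Uqcrb had 284, 379 and 868 CPM in astrocytes, against 898, 1350, 786 and 414 CPM in flowthrough (log2 fold change -1.03 ± 0.45, adjusted p = 0.124; with the block -1.56 ± 0.40, adjusted p = 0.0156). Uqcr10, the highest of complex III per length, averaged 1165 ± 458 RPKM in astrocytes and 1949 ± 805 RPKM in flowthrough (SD, n = 8 and 4; log2 fold change -0.86 ± 0.42, adjusted p = 0.164). Uqcrc2, the other core protein gene, and Cyc1, which encodes cytochrome c1, had estimates near 0 (0.01 ± 0.44 and -0.06 ± 0.31).

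Cycs, cytochrome c itself, had 187, 217 and 386 CPM in astrocytes, against 428, 547, 381 and 272 CPM in flowthrough aKO 203, aKO 205, WT 201 and WT 202. WT astrocytes 265 stood above the flowthrough of WT 201 and WT 202, and the other 7 astrocyte libraries lay below all flowthrough libraries. The log2 fold change was -0.96 ± 0.36 (adjusted p = 0.0749) and -1.29 ± 0.38 with the block (adjusted p = 0.0291).

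Complex IV held the 3 genes that passed over all 12 libraries, each the tissue-restricted form of an isoform pair. Cox8b, the form known from heart and skeletal muscle, had 35.3, 128, 127, 42.8 and 101 CPM in aKO astrocytes 203, 205, 208, 221 and 222 and 89.0, 12.3 and 138 CPM in WT astrocytes 201, 202 and 265. It had 306 and 477 CPM in aKO flowthrough 203 and 205 and 180 and 88.2 CPM in WT flowthrough 201 and 202. Every flowthrough library other than WT 202 lay above every astrocyte library.

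Cox8b fell in astrocytes by 1.74 ± 0.52 on the log2 scale (SE, adjusted p = 0.0307) and by 2.56 ± 0.39 with the block (adjusted p = 0.00128); it passed in 15 of 22 alternatives, with adjusted p between 0.000252 and 0.169. Its widespread partner Cox8a had 69.0, 245 and 570 CPM in astrocytes, against 66.3, 77.9, 48.4 and 301 CPM in flowthrough (log2 fold change 0.85 ± 0.57, adjusted p = 0.321). Cox8b made up 10.2% to 71.0% of the pair's RPKM in astrocytes and 87.4%, 90.2%, 84.8% and 30.6% in flowthrough aKO 203, aKO 205, WT 201 and WT 202. The highest astrocyte shares, 71.0%, 68.8% and 65.7%, were those of WT 265, aKO 222 and aKO 208.

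Cox7a1, another muscle form, had 21.4, 42.1, 38.5, 21.7 and 38.1 CPM in aKO astrocytes 203, 205, 208, 221 and 222 and 32.8, 15.8 and 91.0 CPM in WT astrocytes 201, 202 and 265. It had 91.7 and 185 CPM in aKO flowthrough 203 and 205 and 67.8 and 35.5 CPM in WT flowthrough 201 and 202, so WT 265 and WT 202 again lay within the other fraction. It fell in astrocytes by 1.38 ± 0.44 on the log2 scale (adjusted p = 0.0395) and by 1.95 ± 0.32 with the block (adjusted p = 0.00172), and passed in 12 of 22 alternatives, with adjusted p between 0.00172 and 0.219. Its widespread partner Cox7a2 had a log2 fold change of -0.60 ± 0.41 (adjusted p = 0.332). The 6 muscle markers summed to between 11.3 and 25.2 CPM in astrocytes and between 8.42 and 20.1 CPM in flowthrough, with 1 of them at 0; of the 4 tested, 1 (Acta1) was higher in astrocytes and 0 were lower.

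Cox7b2, a form known from testis, passed as higher but was close to the detection limit, with 27 to 69 reads in astrocyte libraries and 11, 0, 7 and 15 reads in flowthrough aKO 203, aKO 205, WT 201 and WT 202. Its level was 0.77 to 2.57 CPM in astrocytes and 0 to 0.39 CPM in flowthrough, which did not overlap (log2 fold change 2.76 ± 0.74, adjusted p = 0.0174; it passed in 19 of 22 alternatives, with adjusted p between 0.000433 and 0.0903). It made up at most 1.25% of the RPKM of Cox7b2 and Cox7b together in any library.

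The promoters of the Cox8 pair are shown because Cox8b fell and its partner did not pass. Each line gives 250 bases before the gene's start, 5′ to 3′ on the gene's strand, from RefSeq (GRCm38.p6). Motifs searched on both strands were the E-box (CACGTG), the ETS family motif (CCGGAAG), part of the NRF1 motif (TGCGCA) and the YY1 motif (AAGATGGC). None of them occurs in either stretch, so no base is in capitals. In the longer window that also takes in 50 bases after the start, the ETS motif occurs in Cox8a, nowhere wholly within the bases shown, and none of the motifs occurs in Cox8b.
Cox8b (chr7:140900447-140900696, minus strand): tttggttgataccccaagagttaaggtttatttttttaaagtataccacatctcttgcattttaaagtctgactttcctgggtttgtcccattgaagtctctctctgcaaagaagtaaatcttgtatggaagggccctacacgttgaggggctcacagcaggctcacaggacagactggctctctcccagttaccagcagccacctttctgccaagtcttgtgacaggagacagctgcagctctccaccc
Cox8a (chr19:7217617-7217866, minus strand): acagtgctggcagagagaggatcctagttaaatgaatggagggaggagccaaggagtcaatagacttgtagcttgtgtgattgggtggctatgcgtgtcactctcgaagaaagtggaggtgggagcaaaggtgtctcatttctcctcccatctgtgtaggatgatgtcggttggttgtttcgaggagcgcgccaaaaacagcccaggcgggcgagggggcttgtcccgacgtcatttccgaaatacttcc

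The remaining pairs did not pass over all 12 libraries. Cox6a1, the widespread form, had 72.0, 423 and 864 CPM in astrocytes, against 55.2, 73.7, 35.8 and 460 CPM in flowthrough aKO 203, aKO 205, WT 201 and WT 202 (log2 fold change 1.33 ± 0.66, adjusted p = 0.176; with the block 2.13 ± 0.66, adjusted p = 0.0338). The muscle form Cox6a2 stayed between 4.01 and 30.2 CPM in all libraries, and made up 0.764% to 26.2% of the pair's RPKM in astrocytes and 4.24% to 29.1% in flowthrough. Reads of Cox6a2 may not be told apart from those of Itgad, which overlaps it and had at most 3.05 CPM. Cox6b2, a testis form, had 22.7, 84.99 and 214 CPM in astrocytes, against 159, 341, 224 and 88.1 CPM in flowthrough (log2 fold change -1.49 ± 0.54, adjusted p = 0.0672; with the block -2.15 ± 0.34, adjusted p = 0.00144).

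Cox4i2, the form induced by low oxygen in lung, contributed at most 3.13% of the RPKM of the Cox4 pair in any library, and Ndufa4l2 at most 2.03% of its pair. Cox4i1 overlaps Emc8, at 9.35 to 47.2 CPM, and had 1214, 1666 and 2671 CPM in astrocytes, against 2403, 2977, 1882 and 1851 CPM in flowthrough (log2 fold change -0.52 ± 0.39, adjusted p = 0.387). Cox6b1 was the highest of complex IV per length, with 1181 ± 397 RPKM in astrocytes and 1875 ± 663 RPKM in flowthrough (SD, n = 8 and 4). Cox7a2l, which takes part in joining complexes into supercomplexes, had 44.4 CPM in aKO flowthrough 205 and 162 to 341 CPM in the other libraries.

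**Figure D3:**
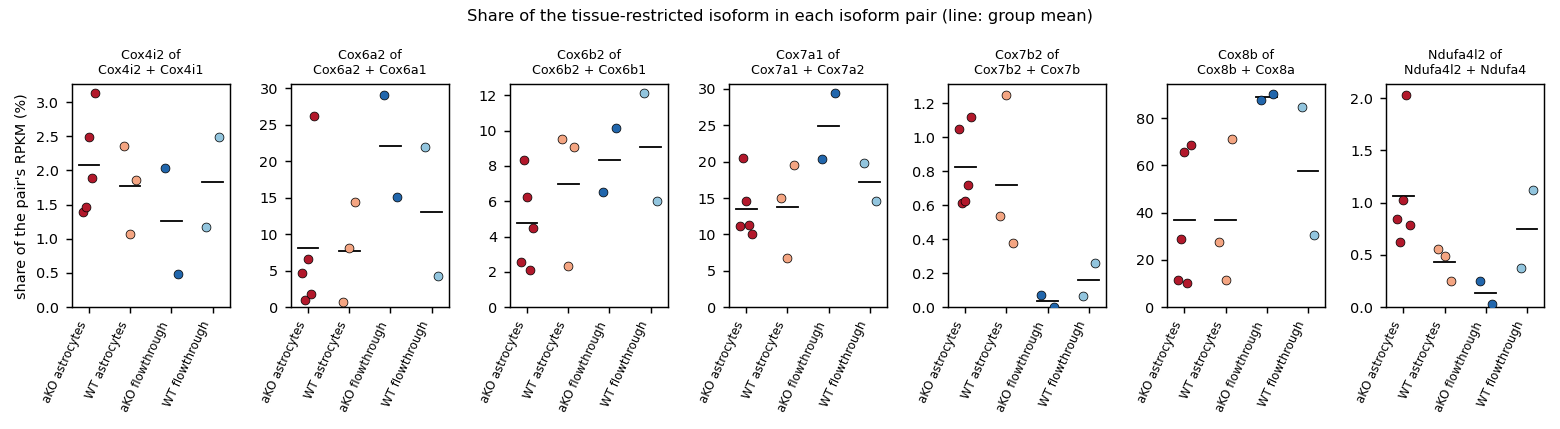
Share of the tissue-restricted gene in the summed RPKM of each isoform pair (y axis, percent) by group; points are libraries and lines are group means (n = 5, 3, 2 and 2 from left to right). The Cox8b share was 84.8% to 90.2% in 3 flowthrough libraries and 30.6% in WT flowthrough 202, whereas the Cox7b2 and Ndufa4l2 shares stayed at or below 2.03%.

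In complex V, Atp5g1 to Atp5g3, 3 genes for the same mature c-ring protein, had estimates below 0, none of which passed over all 12 libraries. Differences between the 3 were not tested. Atp5g1 had 294, 777 and 1758 CPM in astrocytes, against 1708, 3780, 1598 and 856 CPM in flowthrough aKO 203, aKO 205, WT 201 and WT 202 (log2 fold change -1.51 ± 0.51, adjusted p = 0.0531; with the block -2.14 ± 0.38, adjusted p = 0.00277). WT astrocytes 265, at 1758 CPM, lay among the flowthrough libraries, and WT flowthrough 202, at 856 CPM, lay among the astrocytes. Atp5g2 had a log2 fold change of -0.81 ± 0.37 (adjusted p = 0.146) and Atp5g3 of -0.36 ± 0.33 (adjusted p = 0.472).

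Estimates of the catalytic head subunits lay on both sides of 0, and none passed over all 12 libraries. Atp5a1, the alpha subunit gene, had 226, 794 and 836 CPM in astrocytes, against 314, 172, 364 and 625.1 CPM in flowthrough (log2 fold change 0.63 ± 0.43, adjusted p = 0.329), and Atp5b, the beta subunit gene, had an estimate of 0.18 ± 0.34 (adjusted p = 0.757). The gamma subunit gene Atp5c1 had an estimate of -0.27 ± 0.40 (adjusted p = 0.677), the delta subunit gene Atp5d of 0.11 ± 0.43 (adjusted p = 0.877) and the epsilon subunit gene Atp5e of -1.06 ± 0.40 (adjusted p = 0.0816). Atp5mpl, the gene of a small subunit outside the head, had an estimate of -0.95 ± 0.40 (adjusted p = 0.116) and was the highest of complex V per length, at 918 ± 321 RPKM in astrocytes and 1654 ± 833 RPKM in flowthrough (SD, n = 8 and 4). Atpif1, which encodes the inhibitor of ATP hydrolysis and is not a subunit, had 120, 147 and 293 CPM in astrocytes, against 320, 474, 259 and 182 CPM in flowthrough.

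Across the 85 genes the estimates went with coding length, a split noticed in these data and then described. The 63 genes with a longest coding sequence under 600 bases had a median log2 fold change of -0.63 in astrocytes over flowthrough and the 22 longer ones 0.04, against -0.35 and 0.13 for the 2248 shorter and 14080 longer genes among all those tested. Spearman's rho of log2 fold change with coding length was 0.46 over the 85 genes and 0.18 over 16328 genes, all measured in the same libraries. Cox6a1, Cox8a and Ndufa6 were short genes with estimates above 0 (1.33, 0.85 and 0.79). RNA quality values were not used here, and the part of RNA length or quality in these estimates was not tested.

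**Figure D4:**
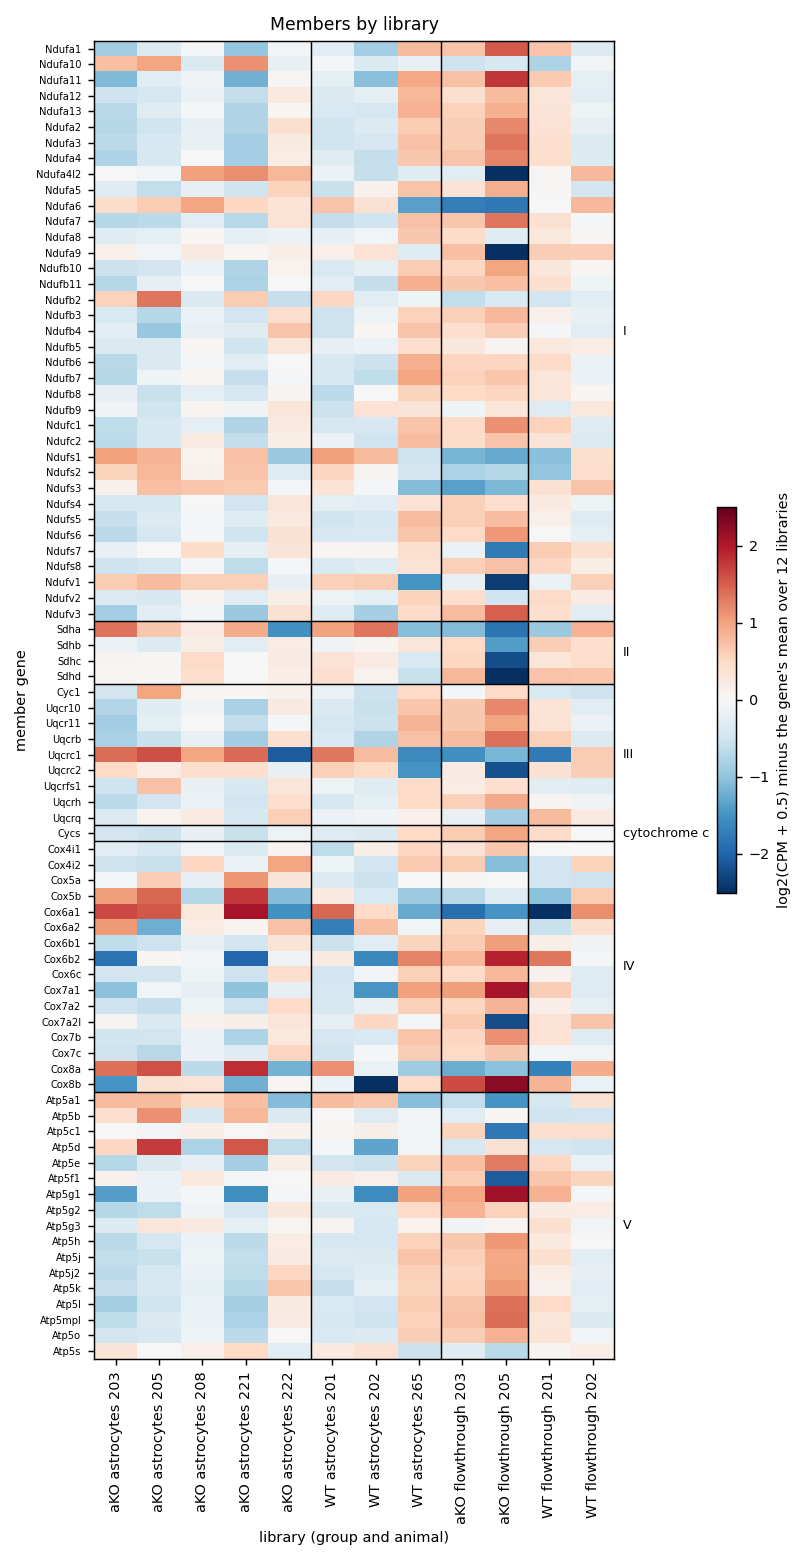
Log2(CPM + 0.5) of each gene minus its mean over the 12 libraries (colour), with genes grouped by complex down the page and libraries along the x axis; genes averaging 1 CPM or less are not drawn. WT astrocytes 265 and aKO flowthrough 203 and 205 are mostly red, with blue rows at Ndufs1, Ndufa6, Sdha, Uqcrc1 and Cox6a1, which had 43.5, 78.3, 104, 38.9 and 86.1 CPM in WT astrocytes 265.

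Of the nuclear genes that serve the system without being subunits, few passed in astrocytes over flowthrough. Among 49 tested assembly factors 0 were higher and 2 lower, the complex IV assembly genes Pet100 (-1.15 ± 0.38, adjusted p = 0.0467) and Coa3 (-1.14 ± 0.38, adjusted p = 0.0473), with a list median of -0.15. Among 15 regulators of mitochondrial biogenesis 1 was higher, Ppargc1a, a coactivator of mitochondrial genes. It had 48.9, 71.3, 27.1, 36.3 and 20.9 CPM in aKO astrocytes 203, 205, 208, 221 and 222 and 67.0, 44.0 and 30.04 CPM in WT astrocytes 201, 202 and 265, against 14.2 and 10.6 CPM in aKO flowthrough 203 and 205 and 13.0 and 28.6 CPM in WT flowthrough 201 and 202. WT flowthrough 202 overlapped the lower astrocyte libraries (log2 fold change 1.17 ± 0.33, adjusted p = 0.0208). None of 7 carriers and channels for adenine nucleotides, phosphate and other solutes passed, with a list median of -0.24.

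In aKO over WT astrocytes, no nuclear subunit gene passed the test. The count was 0 of 85, against 5 of 18950 genes (0.0264%); 1 of the 85 (1.18%) and 1.58% of all genes fell under 0.05 before adjustment, and the calls by DESeq2 and by limma voom were 0 as well. The median log2 fold change was -0.34 for the 85 genes and 0.02 for all genes, with 22 estimates above 0 and 63 below. In the same comparison no marker of another cell type was called, but 9 of 9 ependymal (median -0.82) and 9 of 10 choroid plexus markers (-0.25) lay below 0, and 10 of 10 oligodendrocyte (0.86) and 10 of 10 endothelial markers (0.40) lay above 0. Summed levels were 637 to 1503 CPM in aKO and 645 to 2803 CPM in WT for ependymal markers, 21967 to 113388 CPM and 14320 to 177176 CPM for choroid plexus, 3763 to 23114 CPM and 3691 to 12762 CPM for oligodendrocytes, and 542 to 1072 CPM and 351 to 736 CPM for endothelium, with no gene at 0. Their part in the median was not tested. Without WT 265 the median was 0.12 with 64 above 0, and without both WT 265 and aKO 222 it was -0.18 with 22 above 0, so the median was above 0 only where WT 265 alone was left out, among the alternatives run. None of the 13 mitochondrially encoded genes (median -0.16), the 49 assembly factors (-0.11), the 15 regulators (0.01) or the 7 carriers and channels (0.15) passed.

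The genes with the smallest unadjusted p were looked at one by one. Ndufa4l2, a paralogue of Ndufa4 known as a target of the hypoxia pathway, had 10.8, 10.3, 22.6, 24.8 and 19.7 CPM in aKO astrocytes 203, 205, 208, 221 and 222, against 9.80, 7.07 and 8.75 CPM in WT astrocytes 201, 202 and 265. Every aKO library lay above every WT library, by a narrow margin for 203 and 205, and the log2 fold change of 0.97 ± 0.41 did not pass (adjusted p = 0.9997). The gene was picked for its smallest p, so this separation adds no separate evidence. No other tested member had the genotypes apart, and the share over all genes is not given here. Ndufa4l2 overlaps Shmt2, at 4.22 to 19.5 CPM in all libraries, so its reads may not be told apart from those of that gene.

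Cox5b, a complex IV subunit gene, had 138, 180, 40.1, 225 and 30.8 CPM in aKO astrocytes 203, 205, 208, 221 and 222, against 78.4, 50.6 and 34.9 CPM in WT astrocytes 201, 202 and 265 (log2 fold change 0.98 ± 0.53). Atp5d, the delta subunit gene of complex V, had 83.7, 197, 33.5, 172 and 38.3 CPM in aKO astrocytes, against 56.4, 23.3 and 55.8 CPM in WT astrocytes (0.98 ± 0.52). For both genes aKO 203, 205 and 221 lay above all WT libraries and 208 and 222 did not.

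Cox6b2 had 24.6, 93.3, 85.3, 22.7 and 84.7 CPM in aKO astrocytes, against 105, 29.1 and 214 CPM in WT astrocytes (-1.04 ± 0.61). Cox7a1 (-0.70 ± 0.50) and Ndufa11 (-0.70 ± 0.55) were the others with the smallest p below 0, and both turned positive without WT 265, to 0.44 and 0.21.

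The E-box CACGTG, the sequence bound by BMAL1 and CLOCK, occurred in 6 of the 69 promoters of these genes found in RefSeq (8.70%, 250 bases before to 50 after the start) and in 7.24% of 27025 promoters in the same table. The 6 are shown because the deleted gene encodes an E-box factor; each line gives the E-box in capitals with up to 25 bases on either side, 5′ to 3′ on the gene's strand (GRCm38.p6).
Ndufa7 (chr17:33824475-33824530, plus strand): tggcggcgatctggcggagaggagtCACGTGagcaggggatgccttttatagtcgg
Ndufv1 (chr19:4012894-4012949, minus strand): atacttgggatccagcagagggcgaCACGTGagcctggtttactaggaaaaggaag
Atp5f1 (chr3:105959482-105959513, minus strand): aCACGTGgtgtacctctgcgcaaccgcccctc
Atp5g1 (chr11:96075645-96075700, minus strand): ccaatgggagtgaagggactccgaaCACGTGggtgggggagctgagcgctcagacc
Atp5g3 (chr2:73911534-73911576, minus strand): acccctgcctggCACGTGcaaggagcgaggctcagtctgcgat
Atp5l (chr9:44920859-44920914, minus strand): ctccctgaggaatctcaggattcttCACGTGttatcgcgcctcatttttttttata

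The E-box began 72 bases before the start in Ndufa7, 169 in Ndufv1, 249 in Atp5f1, 44 in Atp5g1, 238 in Atp5g3 and 147 in Atp5l. In aKO over WT astrocytes the log2 fold changes of these genes were -0.46 ± 0.53 for Ndufa7, 0.22 ± 0.45 for Ndufv1, -0.05 ± 0.41 for Atp5f1, -0.72 ± 0.61 for Atp5g1, -0.04 ± 0.40 for Atp5g3 and -0.49 ± 0.51 for Atp5l, and none passed. Other motifs were searched on both strands in the same windows. The ETS family motif occurred in 21.7% of the 69 and 9.12% of all promoters. The corresponding shares were 26.1% and 8.06% for the TGCGCA part of the NRF1 motif and 13.0% and 2.88% for the YY1 motif. Such matches describe the letters of the window only.

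In aKO over WT flowthrough, again no gene passed, with 0 of 85 called and 0% of 20637 genes called. Before adjustment, 3 of the 85 (3.53%) and 3.96% of all genes fell under 0.05; by DESeq2 and by limma voom 0 of the 85 were called. The median log2 fold change was 0.82 for the 85 and 0.07 for all genes, with 60 estimates above 0, and it was 0.51 without aKO 205. Complex medians were 0.81 for complex I, 0.99 for complex III, 0.86 for complex IV and 0.88 for complex V, while all 4 complex II genes lay below 0 (median -0.51). Without aKO 205 the complex II median was 0.16 with 3 of 4 above 0, and without aKO 203 it was -1.97, so its sign rested on aKO 205. The 63 shorter genes had a median of 0.92 and the 22 longer ones -0.42, against 0.12 and 0.03 for shorter and longer genes among all tested. Spearman's rho of log2 fold change with coding length was -0.52 over the 85 genes and 0.16 over 16328 genes. The signs of rho were thus opposite, although by these medians the shorter genes stood above the longer ones in both sets. With 2 libraries in each genotype, Ttr took 18.1% and 32.1% of reads in aKO 203 and 205 and 19.8% and 8.17% in WT 201 and 202, and 8 of 10 choroid plexus markers (median 0.57) and 0 of 12 astrocyte markers (median -1.26) had estimates above 0, with 0 called. Their part in the result was not tested.

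Ndufs3, a core subunit of complex I, had 23.0 and 27.3 CPM in aKO flowthrough 203 and 205, against 78.0 and 98.6 CPM in WT flowthrough 201 and 202 (log2 fold change -1.51 ± 0.51, adjusted p = 0.804). Ndufa6, given above, was likewise lower in both aKO libraries (-1.93 ± 0.63), and Ndufa4l2 had 8.93 and 1.51 CPM in aKO, against 11.1 and 19.4 CPM in WT (-1.29 ± 0.68). For all 3 genes the aKO libraries lay below both WT libraries. On the other side of 0, Cox8b (1.82 ± 0.90), Cox7a1 (1.71 ± 0.75) and Atp5mpl, with 632 and 1011 CPM in aKO, against 474 and 298 CPM in WT (1.38 ± 0.68), had both aKO libraries above both WT libraries. All of these genes were picked by smallest p. Most members not picked also had the genotypes apart, Ndufa1 and Ndufa4 among them, so such separation was not particular to the genes named. The share over all genes is not given here. Cre was driven by an astrocyte promoter, and astrocyte markers summed to 1436 and 247 CPM in aKO flowthrough 203 and 205 and to 499 and 5201 CPM in WT flowthrough 201 and 202; their part in these values was not tested.

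No gene passed the test of whether the genotype difference itself differed between the fractions (the interaction), with 0 of 85 and 0% of 20637 genes called. Before adjustment, 4 of the 85 (4.71%) and 2.42% of all genes fell under 0.05; by DESeq2 and by limma voom 0 of the 85 were called. The median of the difference (astrocytes minus flowthrough) was -1.12 for the 85 and -0.03 for all genes. Of the markers, 9 of 10 for choroid plexus (median -0.85) and 9 of 9 for ependymal cells (-1.06) also lay below 0, and 12 of 12 for astrocytes (1.14) lay above 0, with 0 called. Their part was not tested. Complex II had the opposite sign, with all 4 estimates above 0 and a median of 0.51, but the median was -0.24 with 1 of 4 above 0 without aKO flowthrough 205. The smallest p values were those of Ndufs3 (2.01 ± 0.63), Ndufa6 (2.29 ± 0.78) and Ndufa4l2 (2.28 ± 0.84) above 0 and Cox7a1 (-2.36 ± 0.91), Atp5mpl (-1.74 ± 0.83) and Ndufa11 (-2.02 ± 0.97) below 0, each with an adjusted p of 0.956. No gene of the mitochondrially encoded, assembly factor, regulator or carrier lists passed in flowthrough (medians -0.11, 0.11, 0.18 and -0.61) or in the interaction (-0.05, -0.19, -0.19 and 0.86).

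**Figure D5:**
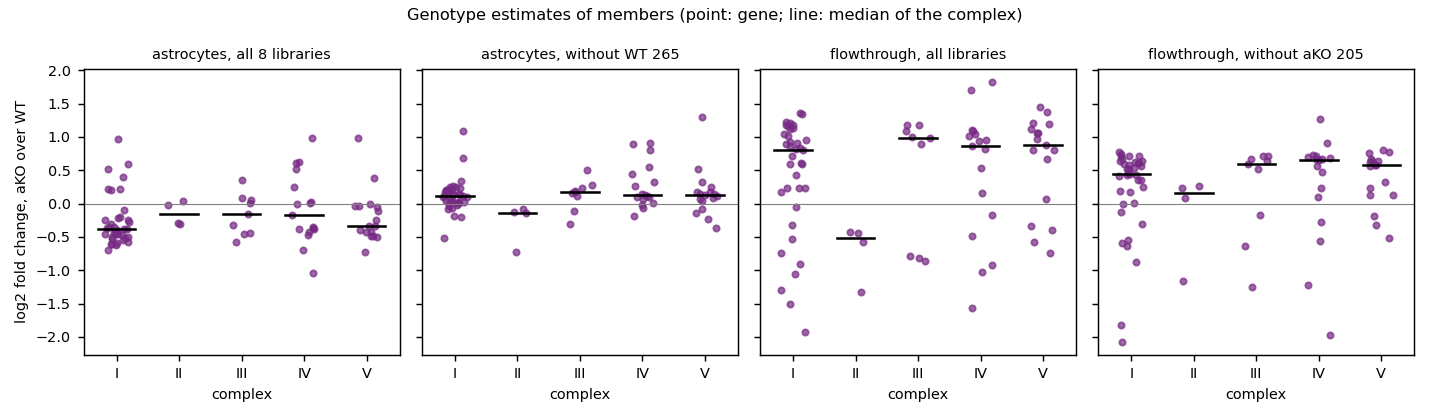
Log2 fold change of each tested gene in aKO over WT (y axis) by complex, in astrocytes with all 8 libraries and without WT 265, and in flowthrough with all libraries and without aKO 205; lines are medians of each complex. Without WT 265 the astrocyte estimates moved to a median of 0.12, and without aKO 205 the flowthrough estimates moved to a median of 0.51 and those of complex II to 0.16.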

How the data were processed

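Per the submitters' processing notes, reads were handled with bcl2fastq, aligned with STAR 2.5.1a to GRCm38 and counted with Subread featureCounts 1.4.6-p5. Which annotation release was used, whether strand was respected, and how multiply matching reads were counted is not given in the sources used here; reads of near-identical pseudogenes and of the 37 members overlapping another gene may not be told apart. The authors deposited, per gene and library, a raw count, a CPM value (scaled to the library's counted reads) and an RPKM value (also divided by exon length). Per the labels, RNA was amplified with a SMARTer kit.

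Identifiers were named through GENCODE vM21 (40254 of 41388). The test was that of edgeR 4.0.16 (R 4.3.3) on the deposited counts (TMM scaling, filterByExpr with a minimum count of 10, robust quasi-likelihood test, Benjamini-Hochberg adjustment over all genes, threshold 0.05), on the 8 astrocyte libraries for genotype in astrocytes and on all 12 libraries in 4 groups otherwise; astrocytes over flowthrough averages both genotypes. DESeq2 1.42.0 and limma 3.58.1 voom, other scalings, no filter, left-out libraries and the other label of 202 were alternatives. The test was checked on simulated data, with 100 genes changed 2-fold and 100 changed 4-fold. For aKO over WT astrocytes 3% of the 2-fold and 69% of the 4-fold changes passed, and for astrocytes over flowthrough 5% and 73%. The changed genes were drawn from those with a higher average level, and the libraries were simulated as independent. Far fewer genes were changed than the 3517 that passed in the real astrocytes over flowthrough test, which makes the simulated adjusted threshold stricter. The 5% and 73% may therefore understate recovery in that test. Most simulated 2-fold changes were missed, so a gene that did not pass may still have changed by that much. The flowthrough genotype comparison and the interaction were not simulated. Members and lists were chosen with earlier results of these data known, and the promoters and the coding length split after calls had been seen. Genes named are all of complex II, Cyc1, Cycs, isoform pairs, Cox7a2l, Atp5g1 to Atp5g3 and Atpif1, the highest RPKM and the 2 largest changes each way per complex, and the 3 smallest p each way per genotype comparison; Atp5c1 and Atp5d in astrocytes over flowthrough were added after their values were seen.

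The animal numbers pair the fractions of 4 animals. Deviations of an animal's libraries from their group means correlated at 0.0823 for 201, 0.424 for 202, 0.166 for 203 and 0.404 for 205 over 20637 genes. Each flowthrough group held 2 libraries, whose deviations from their own mean are mirror images. The 4 correlations are therefore not separate checks of the pairing. Nothing in the labels says more about how replicates were collected than that each number is an animal. The p-values rest on the spread between these libraries. In the tests over all 12 libraries both fractions of an animal were treated as independent, and only the test with the animal block used the pairing.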

Additional observations from a re-analysis of the deposited data

Results flagged for a closer look

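In the group of 5 aKO astrocyte libraries, 5 of 54 values had a highest or lowest library that stood apart by Dixon's criterion (critical value 0.71), which chance alone meets in about 1 group in 20. Atp5a1 was lowest in aKO 222, at 226 CPM, with the next library at 658 CPM. The complex IV sum was highest in aKO 222, at 7335 CPM, with the next at 5942 CPM, and the Cox6a2 share of its pair was highest there too, at 26.2%, with the next at 6.56%. Cyc1 was highest in aKO 205, at 74.8 CPM, with the next at 40.0 CPM. The Ndufa4l2 share of its pair was highest in aKO 221, at 2.03%, with the next at 1.02%.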

How the results depend on the processing

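No member passed in either genotype comparison or in the interaction under any alternative. Over all genes, the 5 calls in aKO over WT astrocytes became 8 without the count filter, 14 with DESeq2, 1 with all 12 libraries in 1 fit, 0 with library 202 as aKO and 3 without aKO 222 and WT 265, and ranged from 0 to 5 when 1 library was left out. In flowthrough the 0 calls became 45 without the filter (0 to 1 on leaving out 1 library), and in the interaction 40 without the filter and 1 with the replicate block or with the same 8 libraries unblocked (0 to 0). The median of the members in astrocytes ranged from -0.63 to 0.12 on leaving out 1 library, turning positive only without WT 265; in flowthrough it ranged from 0.51 to 0.99, and in the interaction from -1.38 to -0.65, with -0.77 under library totals.

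In astrocytes over flowthrough the members called higher were 2 under totals without mitochondrial genes and Ttr, 3 without the filter, 5 with the replicate block, 3 with the same 8 libraries unblocked and 7 without aKO 222 and WT 265 (0 to 3 on leaving out 1 library). Those called lower were 0 under both totals, 4 without the filter, 11 with DESeq2, 5 with limma voom, 0 with 202 as aKO, 35 with the block, 34 unblocked and 41 without aKO 222 and WT 265 (0 to 14). The members' median was -0.98 with the block, -0.99 unblocked and -0.86 without those 2 libraries (-0.72 to -0.38), and all genes called numbered 5951 with the block (1691 to 4107). The cause of these shifts was not tested. With TMM-scaled CPM, an alternative added after the data were seen like that of leaving out 222 and 265, the log2 ratio of summed levels was -0.0801 for complex II in astrocytes over flowthrough (0.11 with CPM), and -0.62 for complex IV there and 0.87 in aKO over WT flowthrough. The Cox7b2 share differed by 0.308 percentage points with counts in place of RPKM (0.687).

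Single genes turned their sign in 46 of 1168 recomputed values, in 11 of 55 results. In aKO over WT astrocytes Cox7a1 was 0.25 without aKO 222 and WT 265 (-1.10 to 0.44 on leaving out 1 library) and Ndufa11 ranged from -1.04 to 0.21. In astrocytes over flowthrough, library totals and totals without mitochondrial genes and Ttr gave 0.069 and 0.22 for Cox4i2, 0.042 and 0.17 for Cox6a2, 0.21 and 0.27 for Cyc1 and 0.084 and 0.19 for Sdhc, and the second gave 0.033 for Cox7a2l. With limma voom Cox7a2l was 0.050, Sdhc 0.22 and Sdhd 0.15. With the replicate block Ndufa4l2 was -0.0045 and Sdhc 0.068, and unblocked Ndufa4l2 was -0.21. Uqcrc2 was -0.030 with DESeq2 or its size factors and -0.12 with 202 as aKO.

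On leaving out 1 library the ranges were -0.36 to 0.42 for Cox4i2, -0.46 to 0.15 for Cox6a2, -0.65 to 0.68 for Cox7a2l, -0.24 to 0.16 for Cyc1, -0.077 to 1.09 for Ndufa4l2, -0.65 to 0.19 for Sdhb, -0.48 to 0.78 for Sdhc, -0.85 to 0.93 for Sdhd and -0.33 to 0.76 for Uqcrc2. The cause was not tested.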
